A study of Homo sapiens with 50 samples.

Results

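The effect of serine lack on A549 cells was described here from the 6 arrays of the vehicle arm harvested at 0 h, among 50 arrays in all. They were chosen by their titles, and none of their measured values entered the choice. A549 is an established human lung adenocarcinoma cell line. The 3 arrays without serine came from cells moved from RPMI to BME medium with nonessential amino acids but no serine, and the 3 arrays with serine came from cells moved at the same time to the same medium with serine. Both groups had been in the new medium for 24 h and were labelled with DMSO, the solvent of the compound, at time 0 h. The study set serine supply against compound 16, an activator of the glycolytic enzyme pyruvate kinase M per its title, at 1 µM for up to 24 h. A further 6 arrays of the compound arm at 0 h, 3 without and 3 with serine, carry the same medium contrast. Harvest at 0 h after compound addition, per the growth protocol, is taken here as no time under the compound, since their labels otherwise name the compound as treatment. Later vehicle arrays at 1.5, 6 and 24 h, each without and with serine, and 3 arrays of cells still in RPMI before the change of medium completed the values used.

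Cells can make serine from a glycolytic intermediate through phosphoglycerate dehydrogenase (PHGDH), phosphoserine aminotransferase (PSAT1) and phosphoserine phosphatase (PSPH), and serine feeds glycine, folate one-carbon units, glutathione and sphingolipids. When an amino acid runs short, uncharged transfer RNA activates the kinase GCN2, and the transcription factor ATF4 then raises genes for amino acid synthesis, uptake and transfer RNA charging. PSAT1, ASNS and the amino acid carriers are among the known targets of ATF4.

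Signals are log2 probe set intensities as deposited, so a difference of 1 is a 2-fold change, and each gene is represented by its brightest probe set. Over the 6 arrays the signal of all 18239 genes had a median of 6.53, and 10% of genes lay below 4.13. The epithelial keratins KRT8 and KRT18 lay between 13.60 and 14.35 on the 6 arrays, and the A549-typical aldehyde dehydrogenase ALDH1A1 between 14.13 and 14.33. CDKN2A, deleted in this line, lay between 4.60 and 5.73, while its neighbour MTAP, known to be lost with it, was listed at 8.39 to 8.70 on its 1 probe set. Which transcript that probe set reads was not tested. The 6 immune markers averaged 4.78 to 4.90 per array without serine and 4.82 to 5.06 with serine, and the 9 fibroblast and endothelial markers 4.53 to 4.60 without serine and 4.49 to 4.64 with serine. The difference between 3′ and 5′ probe sets of ACTB, a sign of RNA quality, was 1.14 ± 0.09 without serine and 1.22 ± 0.15 with serine (SD, n = 3 each).

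In medium without serine, in DMSO at 0 h, 546 genes rose and 530 fell of 18239, 2.99% and 2.91% of those tested, at an adjusted p under 0.05 by limma with Benjamini-Hochberg adjustment. Most changes were small: 7 genes changed at least 2-fold, and the median difference of all genes was 0.005. The lowered genes included most of the mitosis list, 12 of 22 amino acid response genes, PSAT1 and PSPH. The raised genes included secreted airway proteins, with FCGBP foremost, and chaperones of the endoplasmic reticulum. The arrays of the media did not overlap for 22.8% of genes, 12.2% higher and 10.7% lower without serine, and for 27 of the 29 mitosis genes, all lower. The SD of the difference between 2 arrays over all genes was 0.245 to 0.253 within the serine-free group, 0.225 to 0.233 within the group with serine, and 0.263 to 0.277 between the groups.

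The calls rest on a spread estimated over all 50 arrays. When the 6 arrays were fitted alone, 6 genes were called: FCGBP, CSTA, AGR3 and BEX2 rose and STC2 and SLCO2B1 fell, each at an adjusted p of 0.0302 by limma. Leaving out any 1 of the 6 arrays left between 696 and 865 calls. The array numbers in the titles are 19 to 21 without serine and 13 to 15 with serine, so a drift in that order and the medium cannot be told apart.

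**Figure D1:**
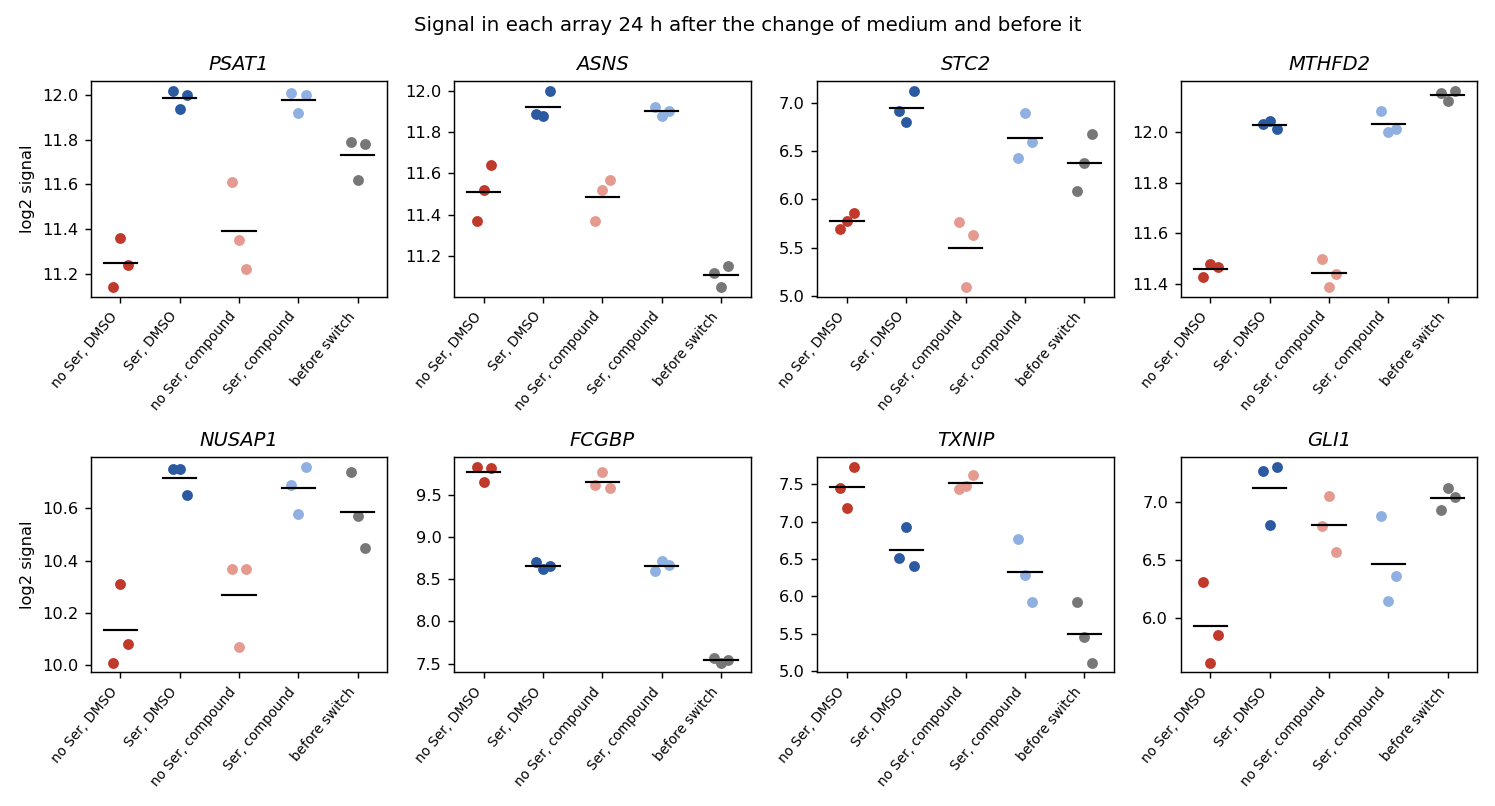
The log2 signal of 8 genes is plotted for each array of 5 groups, namely no serine and serine in DMSO at 0 h, no serine and serine in the compound arm at 0 h, and cells before the switch, with lines at group means. PSAT1, ASNS, STC2, MTHFD2 and NUSAP1 lie lower and FCGBP and TXNIP higher without serine in both arms, while GLI1 lies lower in the DMSO arm, where it averaged 5.93 without and 7.12 with serine.

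Of the 3 serine synthesis enzymes, PSAT1 and PSPH fell and PHGDH did not pass the test. PSAT1 had signals of 11.14, 11.36 and 11.24 without serine, against 12.02, 11.94 and 12.00 with serine. All 3 serine-free arrays lay below all 3 arrays with serine, and the difference was -0.74 ± 0.08 (SE; adjusted p = 1.26e-07, limma). The 7 other PSAT1 probe sets, which are dimmer, differed by -0.83 to -0.35. PSPH had signals of 10.20, 10.15 and 10.18 without serine, against 10.38, 10.45 and 10.39 with serine. Its groups did not overlap, its difference was -0.23 ± 0.06 (SE; adjusted p = 0.0166, limma), and its call was lost when serine-free array 20 (-0.21) or serine array 14 (-0.21) was left out. PHGDH averaged 10.12 without and 10.08 with serine, a difference of 0.04 ± 0.08 (SE; adjusted p = 0.839, limma). Before the change of medium PHGDH averaged 9.23, so that its level lay higher in both new media.

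The one-carbon list covers the enzymes that split serine to glycine and carry its carbon on folate. Of its 19 measured genes 0 rose and 3 fell, against 2.99% and 2.91% of all genes, and its median difference was -0.073. MTHFD2, the mitochondrial methylene folate dehydrogenase, had signals of 11.43, 11.48 and 11.47 without serine, against 12.03, 12.04 and 12.01 with serine. The groups lay far apart compared with their spread, with a difference of -0.57 ± 0.06 (SE; adjusted p = 6.98e-08, limma). MTHFD1L, which acts after it in mitochondria, fell by 0.41, and TYMS, the thymidylate synthase, fell by 0.23. The MTHFD1L call was lost with 5 of the 6 arrays left out in turn. SHMT2, the mitochondrial enzyme that cleaves serine, differed by -0.07 ± 0.07 (SE; adjusted p = 0.604, limma). Of 16 genes of transsulfuration, methionine and glutathione metabolism, CBS and CHAC1 fell and AHCY rose by 0.24. The AHCY call was lost with 4 of the 6 arrays left out in turn. CBS joins serine to homocysteine, and it had signals of 9.48, 9.58 and 9.43 without serine, against 10.16, 10.15 and 10.25 with serine, a difference of -0.69 ± 0.08 (SE; adjusted p = 2.01e-07, limma). Of 19 enzymes of serine-using lipid synthesis, SPTSSB, a small subunit of serine palmitoyltransferase, fell by 0.53 at a low signal, with means of 4.19 without and 4.72 with serine. Its other probe set differed by 0.13, the compound arm gave -0.06, and the call was lost with 3 of the 6 arrays left out in turn. SGMS2, a sphingomyelin synthase, fell by 0.32, though the mean of its probe sets differed by 0.035. Its call was lost with each of the 6 arrays left out in turn.

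Of 22 amino acid response genes 12 fell and 2 rose, against 2.91% and 2.99% of all genes, and the median of the list was -0.315. ASNS, the asparagine synthetase, had signals of 11.37, 11.52 and 11.64 without serine, against 11.89, 11.88 and 12.00 with serine. The groups did not overlap and differed by -0.41 ± 0.07 (SE; adjusted p = 9.36e-05, limma). ATF4 itself, the transcription factor at the head of this response, had signals of 12.96, 12.85 and 12.94 without serine, against 13.24, 13.17 and 13.13 with serine. All 3 serine-free arrays were lower, with a difference of -0.26 ± 0.05 (SE; adjusted p = 0.00119, limma). The 8-base C/EBP-ATF composite motif TGATGNAA, through which ATF4 binds such genes, was searched on both strands of the 250 bases before each RefSeq start. It occurred in 2.23% of 14484 promoters of tested genes and in 3 of the 10 lowered list genes with a promoter in the table, namely ASNS, CHAC1 and ATF3. In the whole list 3 of the 20 genes with a promoter held it. It occurred in 2.8% of promoters of all lowered genes and in 1.35% of those of all raised genes. The windows of ASNS and CHAC1 are shown because both genes fell and both windows hold these letters, written 5′ to 3′ along the gene with the motif of either strand in capitals. They come from RefSeq on GRCh38.p14, ASNS at chr7:97872409-97872658, minus strand, and CHAC1 at chr15:40953221-40953470, plus strand.
ASNS: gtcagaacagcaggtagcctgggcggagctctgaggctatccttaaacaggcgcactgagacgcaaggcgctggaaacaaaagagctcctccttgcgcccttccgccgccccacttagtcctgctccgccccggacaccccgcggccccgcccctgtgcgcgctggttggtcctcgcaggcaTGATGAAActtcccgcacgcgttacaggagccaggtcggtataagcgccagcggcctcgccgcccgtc
CHAC1: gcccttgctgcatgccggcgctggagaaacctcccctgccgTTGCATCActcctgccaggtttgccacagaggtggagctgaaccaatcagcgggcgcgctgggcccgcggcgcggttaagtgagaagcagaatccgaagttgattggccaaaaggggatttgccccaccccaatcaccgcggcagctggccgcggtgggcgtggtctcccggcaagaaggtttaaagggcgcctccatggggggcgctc

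The capitals start 68 bases before the ASNS start and 209 bases before the CHAC1 start, where the letters stand on the other strand. A window without the letters says only that they are not in it. CHAC1, which degrades glutathione, averaged 5.19 ± 0.32 without serine and 5.75 ± 0.10 with serine (SD, n = 3 each). Its highest serine-free array, at 5.56, lay below its lowest array with serine, at 5.67, but at this low signal its difference of -0.55 ± 0.16 (SE; adjusted p = 0.033, limma) lost its call with 5 of the 6 arrays left out in turn. STC2, a secreted glycoprotein, had signals of 5.69, 5.78 and 5.86 without serine, against 6.92, 6.81 and 7.13 with serine. It showed the largest fall of the list, with a difference of -1.18 ± 0.17 (SE; adjusted p = 1.75e-05, limma), or 2.26-fold lower without serine. JDP2, a basic leucine zipper repressor, fell by 0.77, NUPR1, a stress-induced chromatin protein, by 0.73 and PCK2, the mitochondrial PEP carboxykinase, by 0.57. VEGFA fell by 0.41, VLDLR by 0.37 and CEBPG by 0.19. The VLDLR call was lost with 5 of the 6 arrays left out in turn, and the CEBPG call with 4. ATF3 fell by 0.60 on its brightest probe set, while its 6 other, dimmer probe sets differed by -0.05 to 0.39, so that its direction depends on the probe set. TRIB3, an inhibitor of ATF4 signalling, differed by -0.14 ± 0.07 (SE; adjusted p = 0.297, limma). DDIT3 differed by -0.39 and SESN2 by -0.19, and neither passed the test.

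The 2 list members that rose were NIBAN1 and GDF15. NIBAN1, a stress-responsive membrane-associated protein, had signals of 7.58, 7.96 and 7.91 without serine, against 6.61, 7.20 and 7.17 with serine. The groups did not overlap and differed by 0.82 ± 0.16 (SE; adjusted p = 0.00123, limma). The other, dimmer NIBAN1 probe sets differed by 0.17 and 0.19. GDF15, a secreted stress cytokine that p53 also induces, rose by 0.30. Its call was lost with 4 of the 6 arrays left out in turn. GDF15 was the 1 gene called among 18 p53 targets, against 5.9% of all genes.

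Of 19 cytosolic aminoacyl-tRNA synthetases, which charge transfer RNA, 7 fell and 0 rose, against 2.91% and 2.99% of all genes. The list median was -0.107, and 7 members had a positive difference. CARS1, the cysteinyl enzyme, had signals of 8.84, 8.90 and 8.99 without serine, against 9.64, 9.63 and 9.49 with serine, a difference of -0.67 ± 0.06 (SE; adjusted p = 8.28e-09, limma). MARS1, GARS1, AARS1, TARS1, FARSB and IARS1 fell by 0.17 to 0.41, and SARS1, which charges serine, differed by 0.14 without passing the test. FARSB differed by -0.10 to 0.26 on its other probe sets. Of 20 listed amino acid carriers 7 fell and 0 rose, with a median of -0.138 and 6 positive differences. SLC1A4, a carrier of serine, alanine and threonine, had signals of 7.40, 7.49 and 7.61 without serine, against 8.18, 8.38 and 8.35 with serine. Its groups lay apart by -0.81 ± 0.09 (SE; adjusted p = 2.01e-07, limma). SLC7A1 fell by 0.48, SFXN1, a mitochondrial serine carrier, by 0.42, SLC3A2 by 0.41, SLC1A5 by 0.40, SLC7A5 by 0.37 and SLC36A4 by 0.33. SFXN1 differed by -0.09 and 0.07 on its other probe sets, and its call was lost with 3 of the 6 arrays left out in turn. The cystine carrier SLC7A11 differed by -0.06 and did not pass. SLC1A1, a glutamate and cysteine carrier outside the list, rose, with signals of 6.57, 6.62 and 6.32 without serine, against 5.98, 5.47 and 5.37 with serine. It was among the 15 largest rises at 0.90, with 0.48 in the compound arm and 0.05 in DMSO on its other, dimmer probe set, and its call was lost when serine array 15 was left out (0.78).

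Of 29 mitosis genes 24 fell and 0 rose, against 2.91% and 2.99% of all genes. All 29 had a negative difference, with a median of -0.300. NUSAP1, which bundles spindle microtubules, had signals of 10.01, 10.31 and 10.08 without serine, against 10.75, 10.75 and 10.65 with serine. The 3 serine-free arrays lay below the others, with a difference of -0.58 ± 0.08 (SE; adjusted p = 3.02e-06, limma). HMMR, a spindle-associated hyaluronan receptor, had signals of 10.31, 10.38 and 10.34 without serine, against 10.96, 10.98 and 11.03 with serine. It gave the list's largest fall, with a difference of -0.65 ± 0.06 (SE; adjusted p = 1.62e-08, limma). The kinetochore gene NDC80 fell by 0.60, the spindle gene DLGAP5 by 0.58, cyclin A2 (CCNA2) by 0.49, the checkpoint kinase BUB1 by 0.44, the centromeric histone CENPA by 0.43, and the proliferation marker MKI67 by 0.40. CCNB2, CENPE, KIF23, PLK1 and TOP2A differed by -0.28 to -0.09 and did not pass. Outside the list, DEPDC1 fell by 0.92 and the kinetochore gene SPC25 by 0.80. In a bulk sample fewer dividing cells and less RNA of these genes per cell cannot be told apart. Many mitotic promoters are known to carry the cell cycle homology element TTTGAA, bound by the DREAM and MuvB complexes. These letters occurred on either strand of the 250 bases before the start in 10.8% of 14484 promoters and in 10 of the 19 lowered mitosis genes with a promoter in the table (52.6%), and in 14 of the 24 with a promoter in the whole mitosis list (58.3%). They occurred in 14.5% of promoters of all lowered genes and in 7.9% of those of all raised genes. The windows of HMMR and MKI67 are shown as examples with 2 copies each in capitals, HMMR at chr5:163460382-163460631, plus strand, and MKI67 at chr10:128126424-128126673, minus strand, from RefSeq on GRCh38.p14.
HMMR: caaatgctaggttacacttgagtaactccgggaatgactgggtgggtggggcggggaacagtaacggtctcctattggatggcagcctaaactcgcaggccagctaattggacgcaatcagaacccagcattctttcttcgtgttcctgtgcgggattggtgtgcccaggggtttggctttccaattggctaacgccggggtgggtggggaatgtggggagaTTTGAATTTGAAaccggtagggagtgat
MKI67: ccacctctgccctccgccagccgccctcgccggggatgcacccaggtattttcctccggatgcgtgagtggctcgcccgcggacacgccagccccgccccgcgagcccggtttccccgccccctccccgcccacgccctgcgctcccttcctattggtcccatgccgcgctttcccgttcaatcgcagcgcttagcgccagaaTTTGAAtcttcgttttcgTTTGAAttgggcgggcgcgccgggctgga

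Of 28 DNA replication genes 8 fell and 0 rose, against 2.91% and 2.99% of all genes, with a median of -0.161. GINS1, a subunit of the replicative helicase, fell by 0.32 and RRM2, a ribonucleotide reductase subunit, by 0.31. DTL fell by 0.30, GINS2 by 0.29, MCM2 by 0.27, FEN1 by 0.26, TYMS by 0.23 and PRIM1 by 0.17. The PRIM1 call was lost with each of the 6 arrays left out in turn. The MCM2 call was lost with 5 of them, FEN1 with 4, and DTL and GINS2 with 3 each. Between 3 and 7 replication genes were called lower with 1 array left out. FEN1 differed by -0.05 and 0.10 on its other probe sets. PCNA differed by 0.00. Among 19 nucleotide synthesis genes 5 fell, with TK1, the thymidine kinase, at -0.41 and CTPS1, the CTP synthase, at -0.37. IMPDH2, of guanine nucleotide synthesis, rose by 0.24. None of the 8 lowered replication genes carried TTTGAA in its window.

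**Figure D2:**
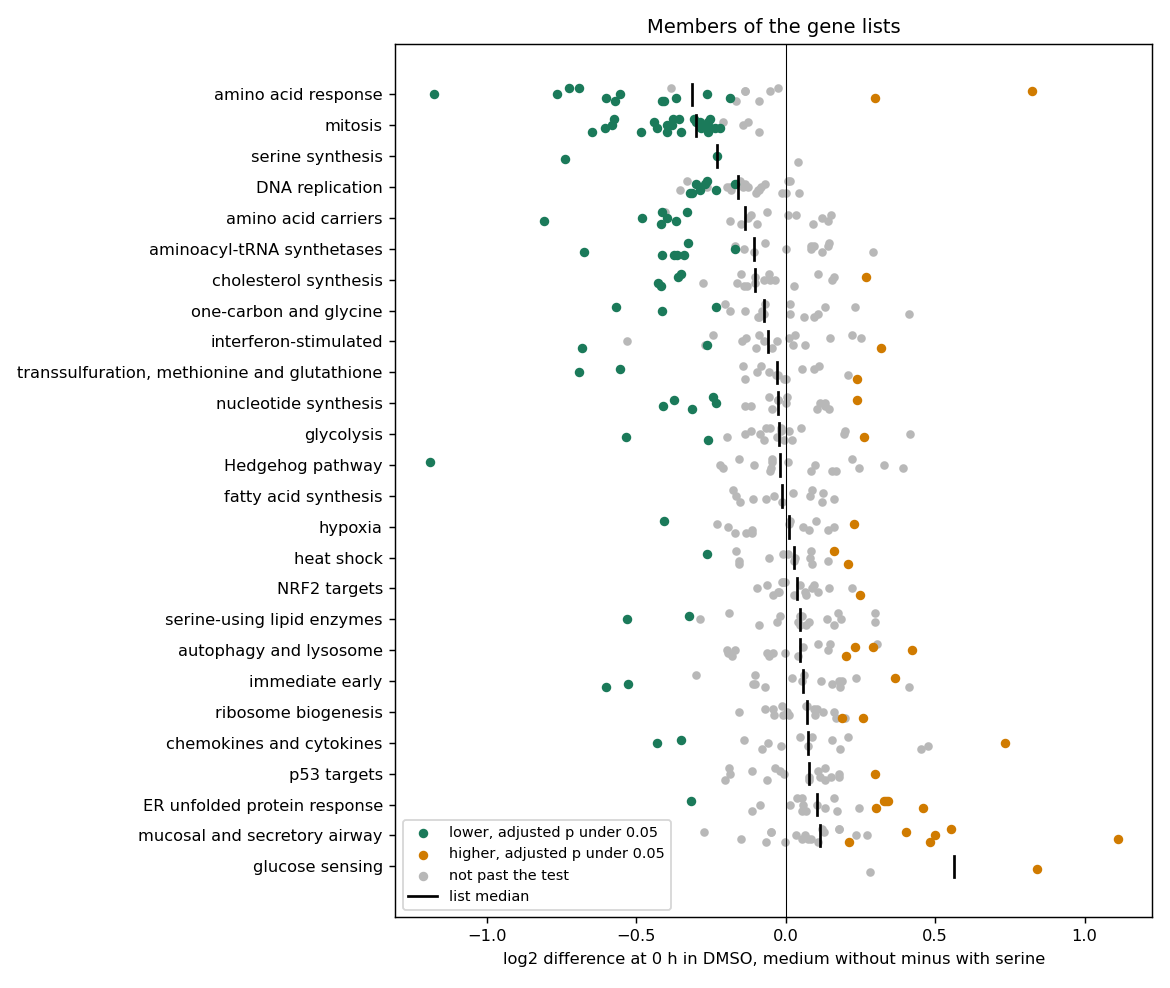
Each point is 1 measured gene of a list, placed by its log2 difference in DMSO at 0 h, medium without minus with serine, with green for genes that fell, orange for genes that rose and grey for genes that did not pass. Mitosis genes all lie left of 0 with a median of -0.300, and the amino acid response has its median at -0.315 and NIBAN1 at 0.82.

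Of 24 mucosal and secretory airway genes 6 rose and 0 fell, against 2.99% and 2.91% of all genes, with a median of 0.114. FCGBP, a mucus protein that binds the Fc part of IgG, had signals of 9.84, 9.66 and 9.82 without serine, against 8.70, 8.62 and 8.66 with serine. It gave the largest rise among the genes named, with a difference of 1.11 ± 0.11 (SE; adjusted p = 6.99e-09, limma), or 2.16-fold higher without serine. The gel-forming mucin MUC5B had signals of 9.76, 9.80 and 9.77 without serine, against 9.01, 9.41 and 9.24 with serine. It rose by 0.55 ± 0.17 (SE; adjusted p = 0.0402, limma), a call lost with 5 of the 6 arrays left out in turn. LCN2, an iron-chelating antimicrobial protein, rose by 0.50, the trefoil peptide TFF1 by 0.48 and AGR2, a disulfide isomerase needed for mucin folding, by 0.21. The membrane mucin MUC4 rose by 0.40 at a low signal, with means of 4.55 without and 4.15 with serine, but differed by 0.01 in the compound arm, and its call was lost with 5 of the 6 arrays left out in turn. Outside the list the secreted copper protein ceruloplasmin (CP) had signals of 10.09, 10.01 and 9.95 without serine, against 9.27, 9.35 and 8.98 with serine, and rose by 0.82 ± 0.14 (SE; adjusted p = 0.000162, limma). The cysteine protease inhibitor CSTA rose by 0.93, and the AGR2 paralogue AGR3 by 0.84. AGR3 differed by 0.185 in the compound arm (adjusted p = 0.757, limma), and its call in DMSO was lost with 5 of the 6 arrays left out in turn. The chemokine CXCL8, with signals of 8.48, 8.49 and 8.57 without serine and 7.95, 7.66 and 7.74 with serine, rose by 0.73. In the chemokine and cytokine list of 15 it was the 1 gene that rose, while CSF1 fell by 0.43 and LIF by 0.35. The CXCL8 and CSF1 calls were each lost with 3 of the 6 arrays left out in turn.

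Of 19 genes of the unfolded protein response of the endoplasmic reticulum 5 rose and 1 fell, against 2.99% and 2.91% of all genes. The list median was 0.103. The chaperone HYOU1 had signals of 9.28, 9.28 and 9.23 without serine, against 8.79, 8.82 and 8.80 with serine, and rose by 0.46 ± 0.07 (SE; adjusted p = 5.01e-05, limma). CRELD2 and the transcription factor XBP1 rose by 0.34 each, the disulfide isomerase PDIA3 by 0.33 and SDF2L1 by 0.30. The XBP1 call was lost with 4 of the 6 arrays left out in turn, and the SDF2L1 call with 3. The chaperone HSPA5, the usual marker of this response, differed by -0.11 and did not pass. HERPUD1, which also responds to ATF4, fell by 0.32. The autophagy and lysosome list of 18 had 4 higher and 0 lower genes, against 2.99% and 2.91% of all genes. WIPI1 rose by 0.42, the sialidase NEU1 by 0.29, HEXA by 0.23 and the protease CTSL by 0.20. The NEU1 and CTSL calls were each lost with 5 of the 6 arrays left out in turn, and the HEXA call with 4. HEXA differed by -0.16 to 0.65 on its other probe sets.

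Of 20 cholesterol synthesis genes 4 fell and 1 rose, against 2.91% and 2.99% of all genes, with a median of -0.102. CYP51A1 fell by 0.43, ACAT2 by 0.42, EBP by 0.36 and FDPS by 0.35. The CYP51A1 call was lost with 5 of the 6 arrays left out in turn. INSIG1, which retains the sterol sensor in the endoplasmic reticulum, rose by 0.27. Its call was lost with each of the 6 arrays left out in turn. ACAT2 had signals of 11.26, 11.15 and 11.25 without serine, against 11.58, 11.61 and 11.72 with serine, and the groups did not overlap. The fatty acid synthesis list of 13 had 0 calls. Of 20 glycolysis genes HK1 rose by 0.26, and ALDOC fell by 0.53 and PFKFB3 by 0.26. PKM, the pyruvate kinase gene, had signals of 10.49, 10.52 and 10.51 without serine, against 10.67, 10.64 and 10.62 with serine. These groups did not overlap, yet the difference of -0.14 ± 0.07 (SE) did not pass (adjusted p = 0.236, limma). TXNIP, a glucose-responsive inhibitor of glucose uptake, had signals of 7.45, 7.19 and 7.74 without serine, against 6.52, 6.93 and 6.41 with serine. It rose by 0.84 ± 0.23 (SE; adjusted p = 0.0217, limma), and its call was lost with 4 of the 6 arrays left out in turn. Its 4 other probe sets differed by 0.18 to 1.39. The related arrestin ARRDC4 differed by 0.28 and did not pass.

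Small counts were found in the remaining lists. Among 20 interferon-stimulated genes IFIT1 fell by 0.68 and OAS3 by 0.26, and IRF9 rose by 0.32. Among 18 immediate early genes DUSP1, a MAP kinase phosphatase, fell by 0.53 and KLF4 rose by 0.37. DUSP1 differed by -0.09 to 0.33 on its other probe sets. The heat shock list of 15 had HSP90AB1 and HSP90AA1 higher by 0.21 and 0.16, and HSPA2 lower, with a difference of -0.26. RRS1 and NOP16 rose by 0.26 and 0.19 among 19 ribosome biogenesis genes. ALDH3A1 rose by 0.25 among 18 NRF2 targets, and BNIP3 by 0.23 among 15 hypoxia genes. Over the 31 lists 112 of 474 distinct genes were called (23.6%), against 5.9% of all genes tested. The lists were chosen with earlier results of these data known, so this contrast is no test of them. Of the 1076 calls over all genes 935 had a signal at or above the gene median, and the shares were not matched for signal.

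In the Hedgehog list of 18 genes GLI1, the pathway's transcription factor and target, was the 1 gene called, against 5.9% of all genes. It had signals of 6.31, 5.62 and 5.86 without serine, against 7.26, 6.80 and 7.30 with serine. The groups did not overlap and differed by -1.19 ± 0.28 (SE; adjusted p = 0.00621, limma), 2.28-fold lower without serine. Its call was kept with each of the 6 arrays left out. In the compound arm at 0 h, however, GLI1 had signals of 6.79, 7.05 and 6.57 without serine, against 6.88, 6.15 and 6.36 with serine. Those groups overlapped and the difference was 0.34 ± 0.28 (SE; adjusted p = 0.597, limma). The difference between the arms, -1.53, did not pass (adjusted p = 0.337, limma), nor did the difference over both arms, -0.43 (adjusted p = 0.16, limma). PTCH1, the receptor that Hedgehog signalling raises, differed by -0.05 in DMSO and GLI2 by -0.16, and neither passed.

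The compound arm at 0 h gave the same medium contrast on 6 arrays that share none with the vehicle arm. Its title numbers are 16 to 18 without serine and 10 to 12 with serine, the same order as in DMSO, so here too a drift in that order and the medium cannot be told apart. In it 743 genes were called (4.07%), 428 higher (2.35%) and 315 lower (1.73%). Of the 1076 genes called in DMSO 1006 (93.5%) had the same sign there, against 63.6% of all genes, and 418 were called in both arms with the same sign. Genes called in both arms with either sign make up 38.9% of the DMSO calls and 56.4% of the calls of the compound arm. OPRL1 was called in both arms with opposite signs, with a difference of -0.39 in DMSO and 0.46 in the compound arm, and it was named after its values were seen. No gene differed between the arms after adjustment by limma. An unadjusted p under 0.05 was found for 1070 genes, where 912 are expected by chance.

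Lists were called in the compound arm as follows. Of 29 mitosis genes 25 fell, of 22 amino acid response genes 10 fell and 1 rose, of 20 carriers 5 fell, and of 24 airway genes 5 rose. Of all genes 1.73% fell and 2.35% rose in this arm. Of the 3 serine synthesis genes PSAT1 and PSPH fell, and PHGDH rose, averaging 10.10 without and 9.83 with serine, a difference of 0.27 (adjusted p = 0.0475, limma) against 0.04 in DMSO. PSAT1 had signals of 11.61, 11.35 and 11.22 without serine in the compound arm, against 12.01, 11.92 and 12.00 with serine, a difference of -0.58 ± 0.08 (SE; adjusted p = 1.54e-05, limma). FCGBP had signals of 9.62, 9.77 and 9.59 without serine in the compound arm, against 8.60, 8.72 and 8.67 with serine, a difference of 1.00 ± 0.11 (SE; adjusted p = 1.28e-07, limma). The groups of both genes again lay apart. Over both arms, 6 arrays against 6, 2299 genes were called (12.6%), 1279 higher (7.01%) and 1020 lower (5.59%). Among them were 27 lower mitosis genes and 15 lower and 2 higher amino acid response genes. Fitted on those 12 arrays alone, 1045 genes were called, with 26 lower mitosis genes and 12 lower and 2 higher amino acid response genes. With all 12 arrays, 25 mitosis genes showed no overlap between the media, against 2.12% of all genes.

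**Figure D3:**
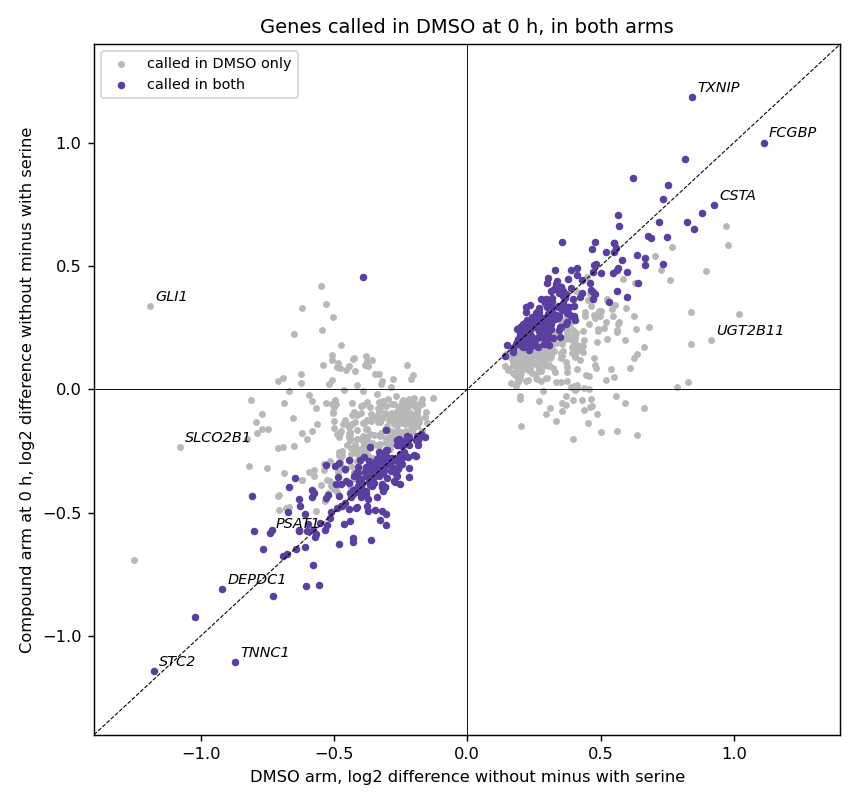
Each point is 1 of the 1076 genes called in DMSO at 0 h, placed by its log2 difference (without minus with serine) in the DMSO arm and in the compound arm, with purple for genes called in both. STC2, TNNC1, FCGBP and TXNIP lie near the diagonal, while GLI1, SLCO2B1 and UGT2B11 lie near or beyond 0 in the compound arm.

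The largest changes did not all recur. Of the 15 largest rises and 15 largest falls 29 had the same sign in the compound arm, and 13 were called there. Of the 16 with a signal at or above the gene median 12 were called there, and of the 14 dimmer ones 1 was. Among the recurring genes were the muscle troponin TNNC1, at -0.87 in DMSO and -1.11 in the compound arm, the neuronal pentraxin NPTX1, at -1.02 and -0.92, and GASK1B, at 0.88 and 0.71. The organic anion carrier SLCO2B1 had signals of 4.52, 4.60 and 4.53 without serine, against 5.48, 5.79 and 5.62 with serine, in DMSO, and its difference was -1.08 there and -0.23 in the compound arm. The glucuronosyltransferase UGT2B11 gave 0.91 and 0.20, and the histone gene H2AC14 gave 0.83 and 0.03. Over all calls the pattern was alike: of 141 called genes below the median signal 67.4% had the same sign in the compound arm, and of 935 at or above it 97.4% did. The dimmer calls had a median size of 0.51 in DMSO and 0.09 in the compound arm, the brighter ones 0.31 and 0.23. The genes were chosen on the DMSO values, which favours a smaller size in the other arm. CEMIP, a hyaluronan-degrading protein, rose by 0.75 in DMSO and 0.83 in the compound arm. PLA1A, a phospholipase, differed by 0.51 in DMSO without passing the test, and by 1.15 in the compound arm.

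Many of these genes also differed from cells before the change of medium. Relative to cells still in RPMI, 5219 genes were called in the serine-free medium and 3962 in the medium with serine (28.6% and 21.7%). FCGBP averaged 9.77 without serine and 8.66 with serine, and 7.54 before the switch. CP averaged 10.02 without serine and 9.20 with serine, with 7.64, 7.77 and 7.32 before the switch, and TXNIP averaged 7.46 and 6.62, with 5.50 before it. ASNS averaged 11.51 without serine and 11.92 with serine, and 11.11 before the switch, so that both media lay above RPMI. MTHFD2 averaged 11.46 without serine and 12.03 with serine, and 12.14 before the switch. NUSAP1 averaged 10.13 without serine and 10.72 with serine, and 10.59 before the switch. The RPMI arrays are a separate block of title numbers, so block and switch cannot be told apart.

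In later vehicle arrays the contrast between media changed with time. Of the 22 amino acid response genes 2 rose and 12 fell at 0 h, 6 rose and 4 fell at 1.5 h (1.05% and 0.927% of all genes), 15 rose and 0 fell at 6 h (1.75% and 1.43%), and 0 rose and 4 fell at 24 h (0.0877% and 0.0713%). Over all genes, 360 were called at 1.5 h (1.97%), 580 at 6 h (3.18%) and 29 at 24 h (0.159%). The list median was -0.315 at 0 h, 0.094 at 1.5 h, 0.426 at 6 h and -0.174 at 24 h. The 1.5 h group with serine has 2 arrays, the others 3. PSAT1 differed by -0.74 at 0 h, -0.39 at 1.5 h, 0.39 at 6 h and -0.39 at 24 h, and passed the test at each time. The change of its difference between 0 h and 6 h, 1.13 ± 0.11 (SE), passed as well (adjusted p = 1.79e-08, limma), and STC2 gave 3.14 ± 0.24 (SE; adjusted p = 8.4e-12, limma). For 15 of the 22 genes the rise of the difference from 0 h to 6 h passed the test, against 0.329% of all genes. In all, 87 genes changed between these times (0.477%), 60 up and 27 down (0.148%).

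Levels of these genes moved with time in both media. ASNS averaged 11.51, 11.46, 11.91 and 10.78 without serine at 0, 1.5, 6 and 24 h, against 11.92, 11.82, 11.56 and 11.27 with serine. The serine-free arrays of ASNS lay above those with serine at 6 h alone. MTHFD2 averaged 11.46, 11.93, 12.36 and 11.34 without serine, against 12.03, 12.05, 11.57 and 11.52 with serine. STC2 averaged 5.78, 6.95, 7.54 and 5.37 without serine, against 6.95, 6.41, 5.57 and 5.79 with serine.

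**Figure D4:**
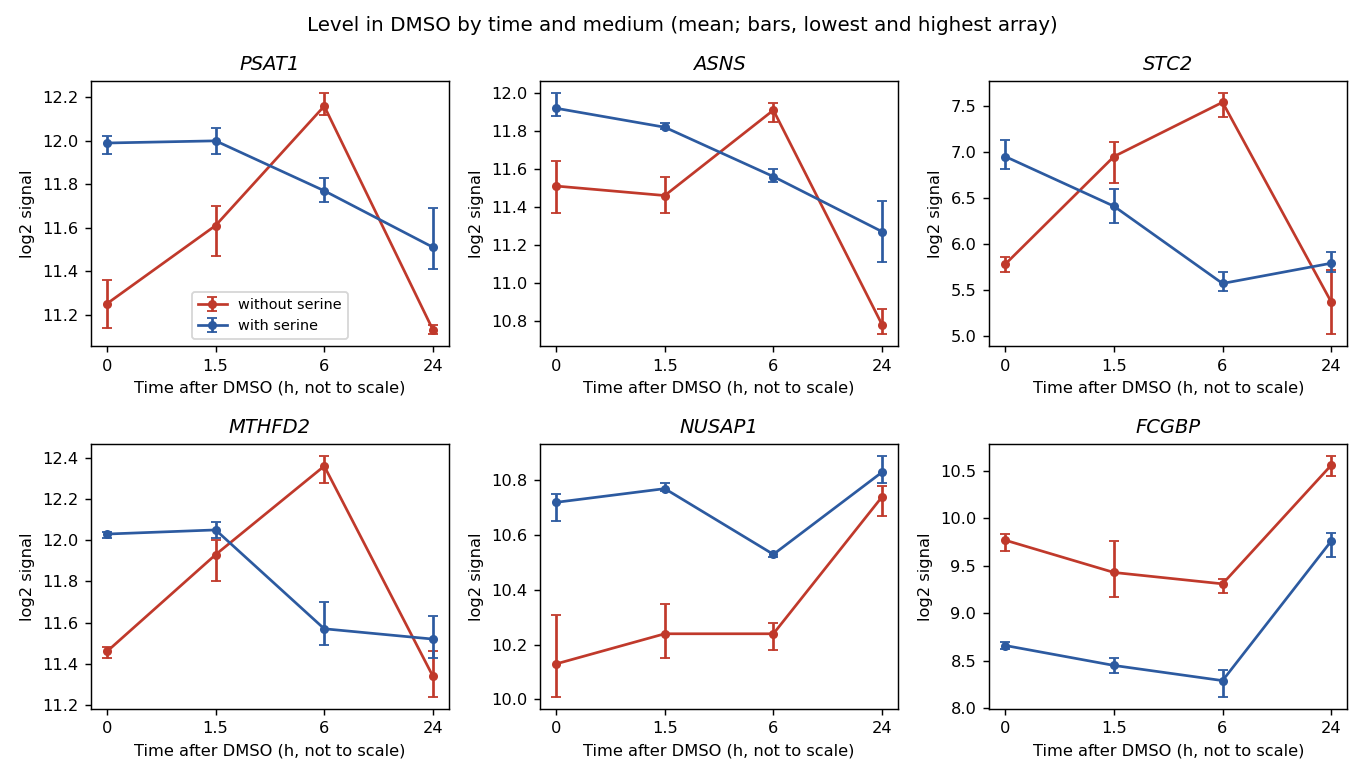
Mean log2 signal of 6 genes in DMSO is plotted at 0, 1.5, 6 and 24 h without serine (red) and with serine (blue), with bars to the lowest and highest array. PSAT1, ASNS, STC2 and MTHFD2 lie lower without serine at 0 h and higher at 6 h, whereas FCGBP lies higher and NUSAP1 lower without serine at all 4 times.

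The medians of the mitosis and airway lists kept their sign. Of the 29 mitosis genes 24 fell at 0 h, 22 at 1.5 h, 22 at 6 h and 0 at 24 h, and the median was -0.300, -0.337, -0.303 and -0.023. Of all genes 2.91% fell at 0 h, 0.927% at 1.5 h, 1.43% at 6 h and 0.0713% at 24 h. Between 0 h and 24 h the difference rose for HMMR by 0.61, for NUSAP1 by 0.49, for DLGAP5 by 0.47 and for AURKA by 0.37, 4 of 29 against 0.197% of all genes. Over all genes 70 changed between these times (0.384%), 36 up and 34 down (0.186%). Of the other 25 no change passed. Of the 24 airway genes 6 rose at 0 h, 5 at 1.5 h, 4 at 6 h and 2 at 24 h, and the median was 0.114, 0.163, 0.097 and 0.035. Of all genes 2.99% rose at 0 h, 1.05% at 1.5 h, 1.75% at 6 h and 0.0877% at 24 h. FCGBP had differences of 1.11 at 0 h, 0.98 at 1.5 h, 1.02 at 6 h and 0.80 at 24 h, and passed at each time. TXNIP gave 0.84, 1.23, 1.50 and 0.90, and the last did not pass (adjusted p = 0.109, limma). GLI1 gave -1.19, -0.90, 0.02 and 0.13, and passed at 0 h alone. The comparisons across time share the 0 h arrays, and blocks of title numbers follow time.

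**Figure D5:**
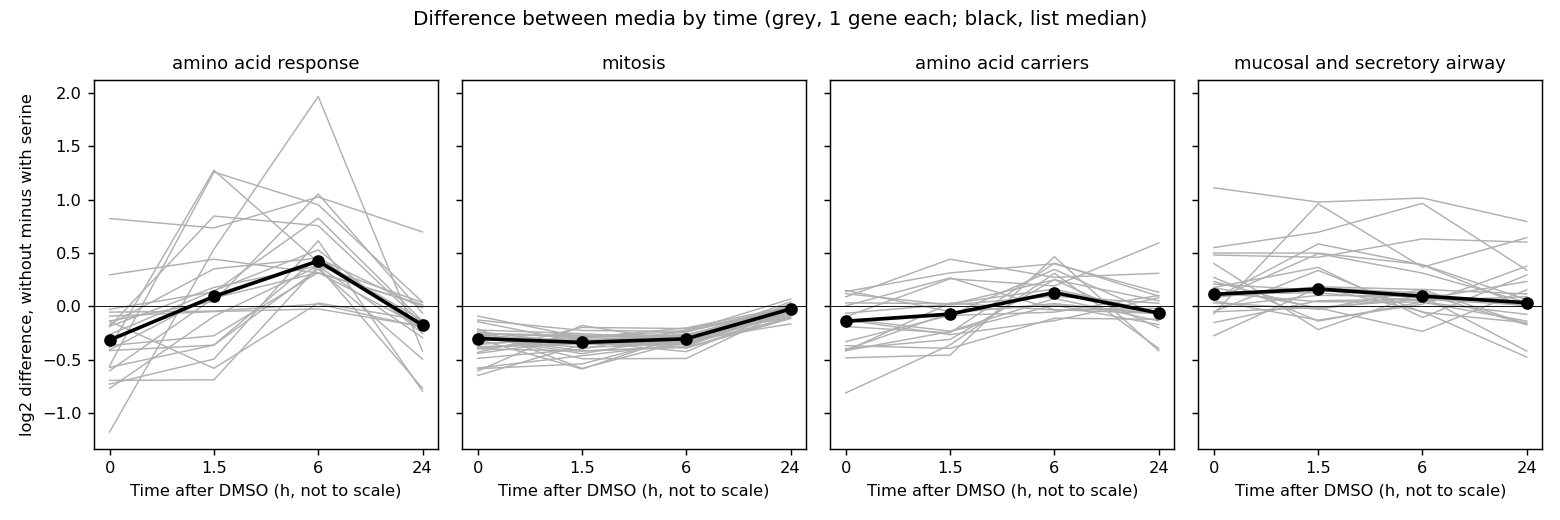
The log2 difference without minus with serine in DMSO is plotted at 0, 1.5, 6 and 24 h for each gene of 4 lists (grey) with the list median (black). The amino acid response median is -0.315 at 0 h and 0.426 at 6 h, the mitosis median is -0.300 at 0 h and -0.023 at 24 h, and the airway median is 0.114 at 0 h.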

How the data were processed

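Total RNA of A549 cells was extracted with Trizol, labelled with biotin and hybridized to Affymetrix HG-U219 arrays, per the protocols in the labels. Signals in the deposited table are on the log2 scale, for 49386 probe sets on 50 arrays in 17 groups; the tools named, per the submitters' processing notes, are RMA and limma, with no setting stated in the labels. RMA compresses changes of dim probe sets and removes shifts shared by all genes. Every column was matched to its sample, and 0 columns lacked one. Array medians ran from 5.40 to 5.54. No detection values were used, so low signals have no stated floor.

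By the platform annotation 45253 probe sets name 1 gene symbol, 1327 several, 2713 none and 93 are controls. The first kind gave 18239 genes, of which 11822 have several probe sets; the one with the highest mean over all arrays was used. No symbol needed an update through the RefSeq table. Values were fitted as deposited, with no filter, in 1 limma model of 17 group means (limma 3.58.1, R 4.3.3; 33 residual and 3.7 prior degrees of freedom), and p-values were adjusted over all genes. The median SE was 0.122. Whether the 3 arrays of 1 group are separate cultures is not in the labels, so that p-values measure the spread of these arrays alone and it may be technical. Precision is limited by the number of arrays.

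The 31 gene lists, with 496 of 526 memberships measured, and the named genes were chosen with earlier results of these data known. Named were PSAT1, GLI1, FCGBP, NUSAP1, PHGDH, PSPH, SHMT2, MTHFD2, ASNS, PKM and TXNIP; up to 15 largest rises and 15 largest falls in DMSO at 0 h, and up to 10 each way over both arms, among genes that were called and showed no overlap; and list members called in either comparison, or else the 2 of smallest p. Loci named by number were skipped. Other list members are named only as values that did not pass. In simulated arrays of 18239 genes the fit recovered 61% of genes changed by 0.5 and 100% of those changed by 1 on the log2 scale. It called 10 genes that had been left unchanged. The simulated noise was normal, independent between arrays and drawn from the fitted spread. Drift and other effects shared by arrays were not simulated. Alternatives were quantile normalization, median centring, dropping the dimmest 40% of genes, array weights, a trended robust prior, the mean of all probe sets, fitting the compared arrays alone and leaving out each array. List counts over both arms under these alternatives were added after seeing the data.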

Additional observations from a re-analysis of the deposited data

Results flagged for a closer look

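The difference between media in DMSO was tested for change with time, and 87 genes differed between 6 h and 0 h. On the log2 scale the difference at 6 h exceeded that at 0 h by 1.13 for PSAT1, 0.57 for PSPH, 1.35 for MTHFD2, 0.76 for ASNS, 3.14 for STC2, 1.12 for SLC1A4, 1.34 for NUPR1, 1.15 for JDP2, 1.07 for CBS, 1.51 for CHAC1, 1.19 for TRIB3 and 0.62 for DDIT4. It exceeded it by 0.92 for ATF3, 0.79 for ATF4, 0.57 for CEBPG, 0.68 for VLDLR, 1.03 for PCK2 and 0.84 for VEGFA. Outside the amino acid genes the change was 0.55 for the kinetochore gene SPC25, 1.13 for SLCO2B1 and -0.86 for UGT2B11.

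Between 24 h and 0 h 70 genes differed. The change was 0.49 for NUSAP1, 0.88 for DEPDC1 and 0.70 for SPC25, all genes of cell division, and 0.38 for MTHFD2. It was 1.45 for SLCO2B1, 1.01 for TBCCD1, -0.75 for BEX2 and -0.87 for UGT2B11. All of these passed an adjusted p of 0.05 by limma, and all comparisons with 0 h share its 6 arrays.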

How the results depend on the processing

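Under all other settings than the following the counts of called genes stayed within 1.5 times the reported ones. The 1076 calls in DMSO at 0 h became 6 with its 6 arrays fitted alone and 696 to 865 with 1 array left out, with the lowest counts without serine-free array 19 (702) or 21 (711) or serine array 13 (696), 14 (703) or 15 (716). The 743 calls of the compound arm became 0 on its own arrays and 404 to 795 with 1 left out; without serine array 10 they were 404, and without serine-free arrays 17 and 18 they were 470 and 421. The 2299 calls over both arms became 1045 on their own arrays and 1864 to 2445 with 1 left out. For DMSO minus the compound arm the count of 0 became 1 with arrays centred on their medians and stayed 0 with 1 array left out. The 87 calls for 6 h minus 0 h became 133 without dim genes, 132 with a trended robust prior, 27 on their own arrays and 58 to 92 with 1 left out. The 70 calls for 24 h minus 0 h became 133 without dim genes, 135 with a trended robust prior, 0 on their own arrays and 28 to 63 with 1 left out. In DMSO at 0 h, the own-array fit called 0 lower mitosis genes and 1 lower amino acid response gene; with 1 array left out these were 19 to 23 and 9 to 10. The fewer calls with fewer arrays go with fewer degrees of freedom and arrays; other causes were not tested. Centring moved the split of calls: for the compound arm 428 higher and 315 lower became 192 and 511 (371 and 377 by quantile normalization), for both arms 1279 and 1020 became 956 and 1257 (1184 and 1162), and for 24 h minus 0 h 36 and 34 became 27 and 43 (49 and 35). Averaging a gene's probe sets turned the sign for SHMT2 (0.03), SGMS2 (0.035), ATF3 (0.031), WARS1 (-0.001), ELOVL5 (0.001), BBC3 (-0.018), HSPA4 (0.007), LAMP2 (0.083), COL3A1 (0.003) and HBB (-0.025), of which SGMS2 and ATF3 had been called. With 1 array left out ULBP1, not called, ran from -0.299 to 0.225, above 0 without serine array 13 (0.016) or serine-free array 19, and HBB, not called, from -0.029 without serine-free array 21 to 0.25. Of 137 named calls in DMSO at 0 h 76 were kept with each array left out, and 61 were lost with at least 1. No paired analysis was possible because no groups share replicate numbers. Signal over background was not given.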
